A study of Mus musculus with 568 samples.

Results

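Cytosolic ribosomal protein genes were followed from embryonic stem cells (ESCs) through epiblast-like cells (EpiLCs) to primordial germ cell-like cells (PGCLCs), and on to germ cells of reconstituted ovaries. Members were taken by symbol, as Rpl or Rps followed by a digit, Rplp0, Rplp1, Rplp2 and Rpsa, without processed copies named -ps, the Rps6k kinases and Rpl10l. This gave 89 of the 16335 genes of the bulk table, and all 89 were among the 16281 genes tested. They comprised 42 large subunit, 31 small subunit and 3 P stalk genes, together called the 76 canonical genes here, 7 protein-coding paralogs, 5 genes annotated as pseudogene copies, and Rps19bp1, which the symbols take in although it encodes a binding partner of a ribosomal protein. The single-cell table of 15718 genes held 85 members.

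Each cytosolic ribosome carries 1 copy of nearly every ribosomal protein, and the mRNAs of these proteins are among the most abundant of a growing cell. Most of the mRNAs begin with a cytosine followed by an unbroken run of pyrimidines, the 5′ terminal oligopyrimidine tract, through which mTORC1 and LARP1 control their translation. Most members are single autosomal genes with many processed pseudogenes, but 4 lie on the X chromosome. Female cells that silence 1 X chromosome therefore read these 4 from a single active allele unless the gene escapes silencing.

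All cells but the somatic cells of reconstituted ovaries came from XRep, a female hybrid ESC line. Its 129S1/SvImJ-derived X chromosome (Xmus) carries GFP and a Tsix truncation. Its CAST/EiJ-derived X chromosome (Xcas) carries tdTomato, and both reporters are in Hprt. Every group also carried rtTA in Rosa26 and piggyBac transgenes for doxycycline-inducible Prdm14, Blimp1 and Tfap2c. The bulk series had 4 libraries in each of 4 groups, namely ESCs in 2i/LIF, EpiLCs, and day 5 PGCLCs induced with doxycycline and sorted as SSEA1+ CD61+ XTomato+ cells that were either XGFP+ or XGFP-. ESCs and EpiLCs were not sorted. The study describes 2 clones with technical repeats, which the labels do not tie to replicate numbers, so p-values may measure technical spread in part. For single cells, PGCLCs were aggregated for 6 days with somatic cells of female gonads and mesonephros from mouse embryos, which were not XRep cells. The rOvary cells were sorted as constitutive (from XGFP+ PGCLCs) or as high, intermediate and low XGFP cells (from XGFP- PGCLCs), next to ESCs.

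Bulk libraries held between 29778299 and 46533858 assigned reads. The summed levels of 5 ESC markers (Zfp42, Esrrb, Nanog, Klf4, Tfcp2l1) were 154021 to 170525 normalized read counts in ESCs and 6166 to 10507 in EpiLCs. They were 53451 to 62671 in XGFP+ PGCLCs and 34161 to 41041 in XGFP- PGCLCs, so the PGCLC groups did not overlap. The 4 EpiLC markers (Fgf5, Dnmt3b, Otx2, Pou3f1) summed to 51893 to 60664 in EpiLCs and to at most 4116 elsewhere. The 6 PGCLC markers summed to 24237 to 27004 in PGCLCs, although 3 of them, Prdm1, Tfap2c and Prdm14, are also the transgenes. Their sum was 8436.5 to 9103.8 in ESCs and 1286.7 to 2295.5 in EpiLCs. Dazl, Ddx4 and Sycp3, markers of later germ cells, summed to 3810 to 9146 in XGFP+ PGCLCs and to 413 to 1274 in XGFP- PGCLCs. Their sum was 932 to 1174 in ESCs and 1450 to 1770 in EpiLCs. Most of the XGFP+ sum was Dazl, with a mean of 4792. Means of Ddx4 and Sycp3 were 532 and 887 in EpiLCs, 461 and 534 in the XGFP+ and 224 and 129 in the XGFP- PGCLCs, so both were highest in EpiLCs. Of 6 gonadal somatic markers, 4 were measured and summed to at most 361. In these bulk samples, fewer cells of a type and less RNA per cell cannot be told apart.

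The starts of 11 members are shown as examples with and without a pyrimidine tract at the annotated start. A run of pyrimidines that begins elsewhere in the window, as in Rpl39, is not marked. RefSeq promoters of GRCm38.p6 were matched for 65 of the 89 members. Each line gives 10 bases before and 20 bases from the annotated start, and capitals mark a C followed by at least 4 pyrimidines that begins exactly at that start. The first 4 belong to genes whose level differed between groups or to the near-identical copy Rps27rt, the next 2 to small subunit genes with long tracts, the following 4 to the X-linked members and the last to the paralog Rpl39l. They lie at chr7:4792955-4792984 (+), chr7:141447641-141447670 (+), chr3:90213629-90213658 (-), chr9:114982720-114982749 (-), chr17:27635225-27635254 (-), chr4:86857348-86857377 (-), chrX:74270806-74270835 (+), chrX:134585644-134585673 (+), chrX:37085203-37085232 (-), chrX:102189372-102189401 (-) and chr16:10170218-10170247 (+), and each spans the annotated transcription start of its gene.
Rpl28: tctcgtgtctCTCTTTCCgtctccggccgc
Rplp2: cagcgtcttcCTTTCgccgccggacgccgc
Rps27: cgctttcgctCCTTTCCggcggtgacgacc
Rps27rt: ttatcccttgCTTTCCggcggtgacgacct
Rps10: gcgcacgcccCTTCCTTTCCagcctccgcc
Rps6: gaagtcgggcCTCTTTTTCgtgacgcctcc
Rpl10: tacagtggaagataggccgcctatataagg
Rpl36a: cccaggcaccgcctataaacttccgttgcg
Rpl39: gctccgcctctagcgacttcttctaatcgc
Rps4x: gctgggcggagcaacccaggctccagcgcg
Rpl39l: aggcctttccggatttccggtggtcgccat

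A tract at the exact annotated start was found in 13 of 56 canonical genes (23.2%) and in 3.01% of 27025 genes with a promoter. It was found in 0 of 4 X-linked members. With a tolerance of 5 bases on either side the shares were 48.2% of canonical genes, 1 of 4 X-linked members and 21.2% of all genes. The letters CTTTCC, searched on both strands of the 300 bases, occurred in 50.0% of canonical genes and in 29.3% of all genes, and overlap the tract in Rpl28, Rps27, Rps27rt and Rps10. An annotated start can lie a few bases from the true one, so these counts describe the annotation only.

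The members together took nearly the same share of the transcriptome in all 4 groups. They made up 6.92%, 7.19%, 5.98% and 6.16% of the normalized read count in the ESC libraries and 7.07%, 6.62%, 6.28% and 6.40% in the EpiLC libraries. In XGFP+ PGCLCs the shares were 7.30%, 6.94%, 6.91% and 6.17%, and in the XGFP- PGCLCs 7.15%, 7.22%, 6.67% and 6.52%. All 4 groups overlapped. The X-linked members alone behaved otherwise, with 0.597% to 0.713% in ESCs, 0.526% to 0.580% in EpiLCs, 0.598% to 0.708% in the XGFP+ and 0.493% to 0.551% in the XGFP- PGCLCs. The libraries of ESCs and XGFP+ PGCLCs thus lay above those of EpiLCs and XGFP- PGCLCs without overlap, while the 72 autosomal canonical genes ranged from 5.24% to 6.55% over all libraries.

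**Figure D1:**
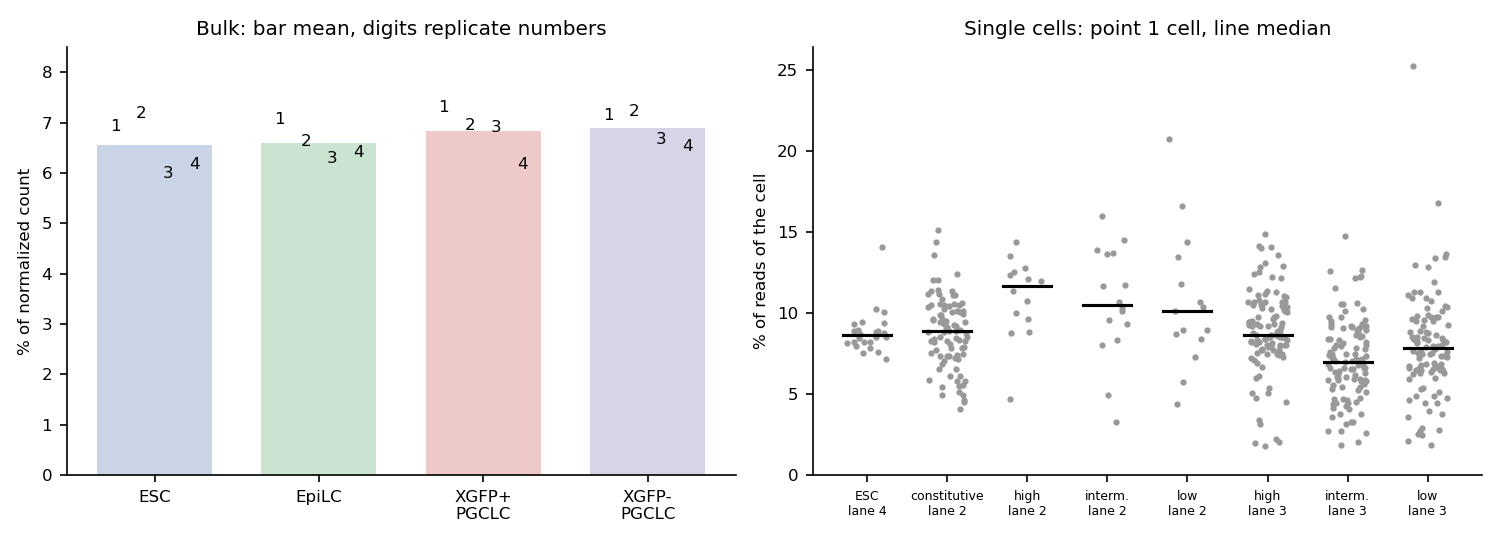
Left, share of the normalized read count (%) taken by the 89 members in each of 16 bulk libraries, with digits at the value of each replicate and bars at the group mean; the groups overlap, with means between 6.56% and 6.89%. Right, share of the reads of each kept single cell (%) by sorted population and flow cell lane, with the median as a line; the lane 2 medians of the high, intermediate and low sorts lie above their lane 3 medians, and the cells overlap.

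Single canonical genes were steady too. Per kilobase of exon, the canonical level in ESCs ran from 2124 normalized read counts for Rpl29 to 89388 for Rplp1, a P stalk protein, with a median of 15890. Rps4x, the X-linked small subunit gene, came next below Rplp1 with 70348 per kilobase. Between groups, the highest and lowest group mean of a canonical autosomal gene were a median of 0.24 apart on the log2 scale, and 67 of 72 stayed within 0.5. The narrowest were Rpl10a, a large subunit gene (0.05), Rps13 (0.07) and Rpl29 (0.08). In contrast, the 13 other members had a median of 0.99, led by Rpl39l (2.86), Rpl3l (1.78) and Rps27l (1.41).

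Across the 5 bulk comparisons, 39 members passed the test (limma adjusted p below 0.001 over all genes tested) at least once and 50, among them 46 canonical genes, never did. The same count over all genes was not made, so it cannot be said whether these are few or many. Shares of all genes are given below for each comparison. Of the members chosen for known roles, Rplp1, the laminin receptor homologue Rpsa, the 5S particle genes Rpl5 and Rpl11, Rps6, which is the substrate of S6 kinase, Rps19, the Diamond-Blackfan anaemia gene, Rpl38, Rps14 and Rpl10a were called in no comparison, with log2 fold changes between -0.28 and 0.22.

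**Figure D2:**
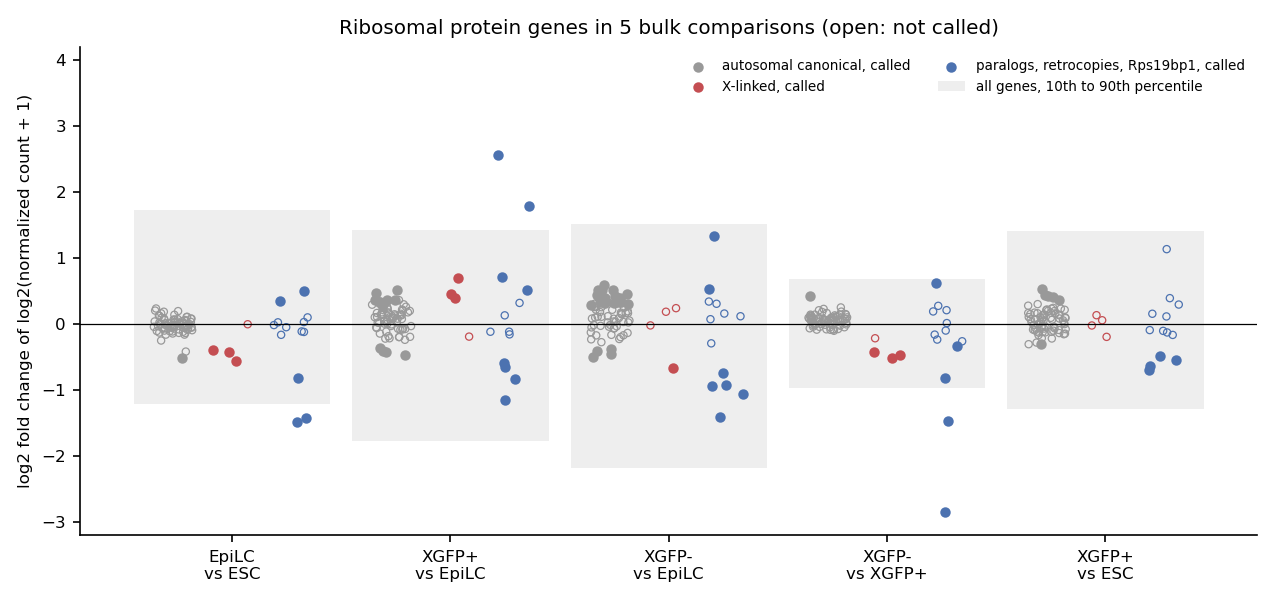
Log2 fold change of log2(normalized count + 1) for each member in 5 bulk comparisons, split into 72 autosomal canonical genes, 4 X-linked genes and 13 paralogs, copies and Rps19bp1; filled points passed the test, and grey boxes span the 10th to 90th percentile of all 16281 genes. Autosomal canonical genes sit in a narrow band near 0, while X-linked members are lower in EpiLCs than in ESCs for 3 of 4, and paralogs spread from -2.86 to 2.56.

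EpiLCs were compared with ESCs to see the members at exit from the naive state. Here 2 members rose and 7 fell (2.25% and 7.87%), against 24.9% and 22.9% of all genes tested (20.5% and 31.7% of the 706 X-linked ones), and only 1 of 72 autosomal canonical genes, Rps29, was called. The median log2 fold change was -0.03 over the members and 0.01 over all genes. Quantile normalization turned the members' median to 0.01 with 5 higher and 5 lower calls, against 24.5% and 24.9% of all genes. The calls were the X-linked Rpl39, Rpl36a and Rps4x and the paralogs Rpl3l, Rpl39l and Rpl22l1 on the lower side, and Rps27l, a paralog of Rps27 that is a p53 target, and Rps19bp1 on the higher side. Rps29, a small subunit gene, fell by 0.52 on the log2 scale (SE 0.12, limma adjusted p = 0.000716). Without EpiLC replicate 4 or without ESC replicate 1, 4 members were called lower in place of 7, and in 7 of the 8 leave-one-out fits 1 was called higher in place of 2.

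XGFP+ PGCLCs against EpiLCs, the step of germ cell induction, gave 16 higher and 8 lower members against 27.8% and 29.5% of all genes, or 27.9% and 27.9% of X-linked genes, with medians of 0.10 for members and -0.00 for all genes. Besides Rpl39l, Rpl3l and Rpl22l1, the increases included the X-linked Rpl39, Rps4x and Rpl36a and 9 autosomal canonical genes, led by Rpl23a with 0.51 (SE 0.08). The decreases were Rps27l, Rps19bp1, Rpl36al, Rpl7l1, Rpl41, Rpl7a, Rplp0 and Rps2. The count of higher members rested on single libraries and on the scaling, since it was 9 without XGFP+ replicate 1, 9 without EpiLC replicate 3, 10 without EpiLC replicate 4, 31 with 7 lower after quantile normalization (30.3% and 29.1% of all genes), and 9 with 8 lower when libraries were scaled to the total without members (26.7% and 30.7% of all genes). The members' share of higher calls thus lay below that of all genes as deposited and above it after quantile normalization.

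XGFP- PGCLCs against the same EpiLC libraries gave 23 higher and 10 lower members (25.8% and 11.2%) against 29.9% and 31.9% of all genes, or 18.1% and 41.2% of X-linked genes, with medians of 0.15 and -0.03. Of the 23, 21 were autosomal canonical genes, and Rpl22l1 and the retrocopy Rpl37rt were the others. None was X-linked, and Rpl10 was the X-linked member that fell. With quantile normalization 42 members were higher and 8 lower (32.3% and 30.7% of all genes), which put the members' share of higher calls above that of all genes. With the total without members 15 were higher and 10 lower (28.6% and 33% of all genes), and with a replicate block 32 and 13 (30.7% and 32.7% of all genes), the former share again above that of all genes. Both comparisons share the EpiLC libraries, so values are given side by side only, as for Rpl23a with 0.51 and 0.60 and for Rpl13a, a regulator of inflammatory translation outside the ribosome, with 0.29 (not called, limma adjusted p = 0.00431) and 0.52.

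Rpl23a, a large subunit gene near the exit tunnel, had 25154, 25832, 20459 and 22789 normalized read counts in ESCs and 26426, 22909, 21543 and 23960 in EpiLCs. It had 36565, 31801, 35607 and 31427 in XGFP+ PGCLCs and 36897, 35751, 35325 and 35100 in XGFP- PGCLCs. Each PGCLC library was above each ESC and EpiLC library, and the difference between XGFP+ PGCLCs and ESCs was 0.53 (SE 0.08, limma adjusted p = 5.84e-06). Rplp2, of the P stalk that recruits translation factors, had group means of 18051 ± 763 in ESCs, 19562 ± 2362 in EpiLCs, 24416 ± 1968 in the XGFP+ and 27749 ± 977 in the XGFP- PGCLCs (SD, n = 4). Its rise from EpiLCs was 0.51 in XGFP- PGCLCs (SE 0.08, limma adjusted p = 4.26e-06) and 0.32 in XGFP+ PGCLCs (limma adjusted p = 0.000645), where the groups overlapped and the call was lost with the compared groups alone, with the total without members (limma adjusted p = 0.00484 and 0.00298), or without any one of XGFP+ replicates 1, 2 and 3 and EpiLC replicates 2, 3 and 4 (0.00161 to 0.0036). Rplp0, the scaffold of the same stalk, moved the other way, with means of 37823 ± 1587, 44574 ± 3445, 33688 ± 2412 and 33493 ± 935, and both falls from EpiLCs passed the test (-0.40 and -0.41). The stalk genes thus did not change together.

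XGFP+ PGCLCs against ESCs gave 5 higher members, led by Rpl23a, Rplp2 and Rpl28, and 5 lower members (Rpl7l1, Rps27l, Rpl36al, Rps19bp1, Rps2), 5.62% each, against 25% and 24.9% of all genes and 18.1% and 28.8% of X-linked genes. The median was 0.06, and 0.00 over all genes. Quantile normalization gave 25 higher and 5 lower (24.9% and 24.8% of all genes), so that the members' share of higher calls moved from below to above that of all genes. No X-linked member was called, with log2 fold changes of 0.06 for Rps4x, -0.20 for Rpl10, -0.02 for Rpl36a and 0.13 for Rpl39.

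XGFP- against XGFP+ PGCLCs sets cells with a silent Xmus reporter beside cells with an active one. Only 2 members were higher and 7 lower (2.25% and 7.87%) against 11.3% and 12.5% of all genes, with medians of 0.06 and 0.01. Of the 72 autosomal canonical genes Rps27 alone was called, whereas Rpl39, Rpl10 and Rpl36a of the 4 X-linked members fell. For comparison, 34% of 706 X-linked genes were lower and 4.53% higher in this comparison. With the 2 PGCLC groups fitted alone and replicates of the same number paired, 4 members were higher and 8 lower (16.7% and 15.4% of all genes). Quantile normalization gave 5 higher and 6 lower (11.1% and 12.1% of all genes), and 1 member was higher without XGFP- replicate 1 or without XGFP- replicate 2.

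Rps4x encodes a small subunit protein, has a Y-linked homologue in humans but not in mice, and lies at chrX:102184941-102189394 (-). Its normalized read counts were 125260, 118600, 103898 and 111189 in ESCs, and 85285, 92481, 81374 and 88226 in EpiLCs. They were 126013, 119129, 121828 and 109778 in XGFP+ PGCLCs and 101790, 106897, 97129 and 104220 in XGFP- PGCLCs. EpiLCs lay lowest, ESCs and XGFP+ PGCLCs overlapped, and XGFP- PGCLCs lay above EpiLCs and below XGFP+ PGCLCs without overlap. The fall in EpiLCs was -0.40 (SE 0.07, limma adjusted p = 3.08e-05), or -0.26 and no longer called after quantile normalization (adjusted p = 0.00127), and the rise to XGFP+ PGCLCs 0.46 (SE 0.07, limma adjusted p = 5.24e-06). The differences of XGFP- PGCLCs from EpiLCs (0.24, limma adjusted p = 0.00298) and from XGFP+ PGCLCs (-0.22, limma adjusted p = 0.0115) missed the threshold. The first of these was called with DESeq2 (adjusted p = 0.000492) and after quantile normalization (adjusted p = 0.000124).

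Rpl10, a large subunit protein whose joining completes the subunit in the cytoplasm, lies at chrX:74270812-74273135 (+). Its counts were 79131, 76781, 67215 and 72531 in ESCs and 74460, 73993, 69246 and 76809 in EpiLCs. In XGFP+ PGCLCs they were 69299, 64537, 65658 and 58699, and in XGFP- PGCLCs 45755, 48127, 44249 and 47627. Only the XGFP- PGCLCs stood apart, below every other library. The fall was -0.47 from XGFP+ PGCLCs (SE 0.06, limma adjusted p = 6.56e-06) and -0.66 from EpiLCs (SE 0.06, limma adjusted p = 1.48e-08). Between EpiLCs and ESCs the value was -0.00, and it turned positive after quantile normalization (0.10).

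Rpl39, a short large subunit protein at the exit tunnel, lies at chrX:37082520-37085402 (-). It had 38169, 36324, 28777 and 30705 counts in ESCs and 25430, 21624, 21245 and 22024 in EpiLCs. It had 38340, 40097, 34642 and 33281 in XGFP+ PGCLCs and 26779, 28115, 22799 and 25079 in XGFP- PGCLCs. EpiLCs and XGFP- PGCLCs overlapped, and both lay below ESCs and XGFP+ PGCLCs. The fall from ESCs to EpiLCs was -0.56 (SE 0.09), the rise to XGFP+ PGCLCs 0.70 (SE 0.09) and the difference of XGFP- from XGFP+ PGCLCs -0.51 (SE 0.09, limma adjusted p = 0.000166). The value of XGFP- PGCLCs against EpiLCs was 0.19 (limma adjusted p = 0.0726), and 0.34 and called after quantile normalization (adjusted p = 0.000397).

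Rpl36a, a large subunit gene at chrX:134585654-134588062 (+), had group means of 30842 ± 3306 in ESCs, 23080 ± 2616 in EpiLCs, 30327 ± 2843 in the XGFP+ and 22646 ± 1104 in the XGFP- PGCLCs (SD, n = 4). It followed the order of Rpl39, with -0.42, 0.40 and -0.42 in the same comparisons (SE 0.09 each). These calls were the least firm of the X-linked set, since all 3 were lost when libraries were scaled to the total without members (limma adjusted p = 0.002, 0.00167 and 0.0011). The first was also lost without EpiLC replicate 3 or 4 or ESC replicate 1 or 2 (0.0015 to 0.00186), the second without XGFP+ replicate 1 or 2 or EpiLC replicate 3 or 4 (0.0019 to 0.00258), and the last without any single library of its 2 groups but XGFP+ replicate 4 (0.00112 to 0.00332). Reads of these genes are not all unique to them. Windows of 100 bases were taken from the annotated transcript of each gene that comes first by name. Of these windows, 91.6% of Rpl10, 83.6% of Rpl36a, 34.8% of Rps4x and 1.75% of Rpl39 also occur in transcripts of other genes, mostly processed copies. The part of such copies in these levels was not tested.

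**Figure D3:**
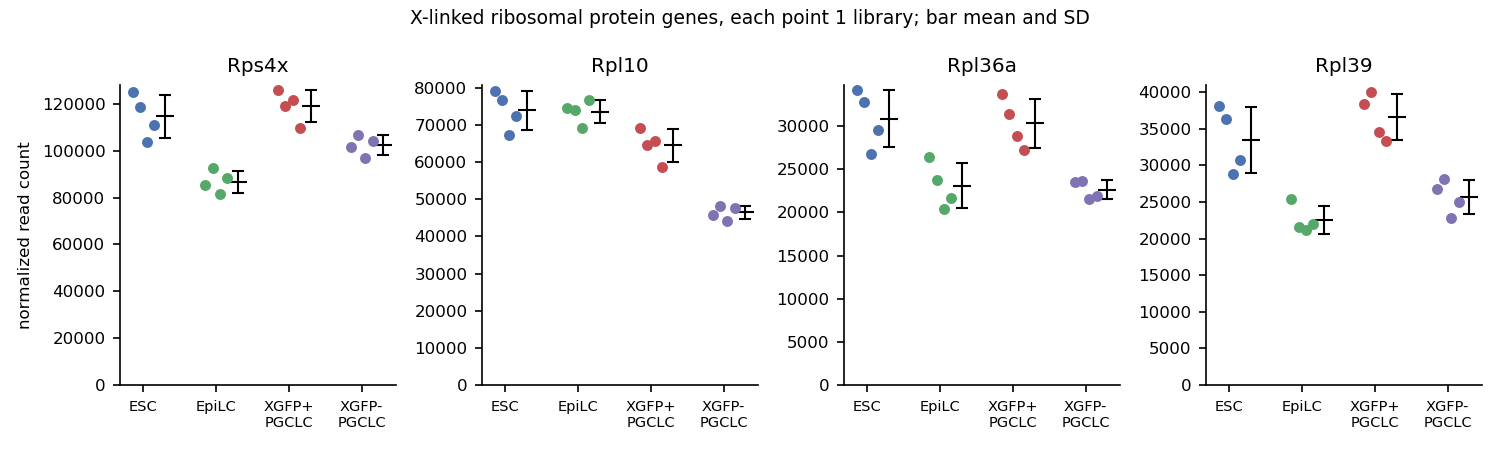
Normalized read count of the 4 X-linked members, each point 1 library, with the group mean and SD (n = 4). Rps4x, Rpl36a and Rpl39 are lowest in EpiLCs or XGFP- PGCLCs, and Rpl10 falls only in XGFP- PGCLCs, to a mean of 46439.

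Allelic ratios are the fraction of allele-assigned reads from Xmus (1 for Xmus alone, 0 for Xcas alone). They were deposited for 5 members, of which 3 had a ratio above 0 in every library. Rps4x had 0.475, 0.488, 0.480 and 0.486 in ESCs, 0.373, 0.390, 0.379 and 0.372 in EpiLCs, 0.477, 0.481, 0.480 and 0.473 in the XGFP+ and 0.340, 0.367, 0.353 and 0.383 in the XGFP- PGCLCs. The ratios of EpiLCs and XGFP- PGCLCs lay below those of ESCs and XGFP+ PGCLCs without overlap, yet remained far from 0. For X-linked genes with a ratio above 0, the median ratio was 0.414 in ESCs (402 genes) and 0.228 in EpiLCs (392 genes). It was 0.331 for XGFP+ PGCLCs (402 genes) and 0.0879 for XGFP- PGCLCs (261 genes). Genes at 0 were left out group by group, so these medians cover different genes. Over the X-linked genes tested against ESCs, genes at 0 included, the median was 0.182 for EpiLCs (457 genes). There it was 0.281 for XGFP+ PGCLCs (466 genes) and 0.0065 for XGFP- PGCLCs (425 genes), although 0 can also mean no allelic reads. Rpl10 had 0.588 to 0.634 in ESCs, 0.500 to 0.546 in EpiLCs, 0.620 to 0.679 in the XGFP+ and 0.403 to 0.514 in the XGFP- PGCLCs. Most windows of Rpl10 also occur in transcripts of other genes, and the part of such copies in its ratios was not tested. Rps23, an autosomal decoding-centre gene on chromosome 13, had group means of 0.555, 0.562, 0.610 and 0.582 in the same order.

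For Rps4x and Rpl10 the differences of EpiLCs from ESCs (-0.10 and -0.08), of XGFP- PGCLCs from ESCs (-0.12 and -0.15) and of XGFP- from XGFP+ PGCLCs (-0.12 and -0.19) each gave p = 0.0286 in an exact two-sided permutation test, the smallest that 4 libraries against 4 can give. Adjusted over the 871, 835 and 826 genes tested these were 0.0932, 0.0732 and 0.0925 by the exact test, so neither gene passed 0.05, and 0.0% of all genes did. At an unadjusted p below 0.05 there were 267, 326 and 255 genes. The smallest p passes this adjustment only where most of the genes tested reach it. The adjusted test therefore cannot decide for single genes here. Rps23 had adjusted p = 1.0, 0.555 and 0.422 by the exact test. Rpl36a and Rps3a3 were listed at 0 in nearly every library, where 0 can also mean no allelic reads. The depth behind these ratios is unknown.

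The product of level and ratio divides the normalized read count between the alleles, as a description. For Rps4x the Xmus part was 55315 ± 4272 in ESCs, 32883 ± 2267 in EpiLCs, 56935 ± 3535 in the XGFP+ and 37008 ± 2973 in the XGFP- PGCLCs (SD, n = 4). The Xcas part was 59421 ± 5062, 53959 ± 2586, 62253 ± 3373 and 65500 ± 2320, so the highest and lowest group means were closer together than those of the Xmus part. For Rpl10 the Xmus part was 44656 ± 4415, 38294 ± 1874, 41748 ± 3128 and 21073 ± 3044, and the Xcas part 29258 ± 1496, 35333 ± 2487, 22801 ± 2304 and 25367 ± 1725. The untested part of copies of Rpl10 limits both its level and its ratio here.

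The widest differences among members were those of paralogs. Rpl39l, an autosomal paralog of Rpl39 known for its expression in male germ cells, lies at chr16:10170226-10174911 (+) and shares no 100-base window with another gene. It had 900.3, 817, 674 and 839 normalized read counts in ESCs and 365, 249, 380 and 227 in EpiLCs. It had 1498, 1769, 1706 and 2147 in the XGFP+ and 153, 306, 153 and 482 in the XGFP- PGCLCs. XGFP+ PGCLCs lay above all other groups, and XGFP- PGCLCs overlapped EpiLCs. The rise from EpiLCs to XGFP+ PGCLCs was 2.56 (SE 0.28, limma adjusted p = 1.15e-07), and XGFP- lay below XGFP+ PGCLCs by -2.86 (SE 0.28, limma adjusted p = 1.63e-07). Dazl, the later germ cell marker, had a mean of 4792 in XGFP+ and 348 in XGFP- PGCLCs, and the part of this difference between the sorted populations in that of Rpl39l was not tested. Against its parent, Rpl39l stayed low, at 2142 per kilobase in XGFP+ PGCLCs where Rpl39 had 25516.

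Rpl10l, a retrogene of Rpl10 outside the symbol rule that is known to serve in male germ cells, was also low in XGFP- PGCLCs. Its mean was 1156 ± 64.2 in ESCs, 716 ± 221 in EpiLCs, 654 ± 54.3 in the XGFP+ and 44.5 ± 30.2 in the XGFP- PGCLCs (SD, n = 4), and it was lower in XGFP- than in XGFP+ PGCLCs by -4.03 (SE 0.27, limma adjusted p = 2.41e-09). Rpl3l, the striated muscle paralog of Rpl3, was barely present, with 14.7 to 31.4 counts in ESCs, 4.9 to 7.9 in EpiLCs, 16.3 to 40.3 in the XGFP+ and 6.7 to 11.3 in the XGFP- PGCLCs. ESCs and XGFP+ PGCLCs lay above the other groups without overlap, and Rpl3 itself was called in no comparison. The difference of XGFP- from XGFP+ PGCLCs (-1.48, limma adjusted p = 0.000493) was lost after quantile normalization (limma adjusted p = 0.00216), with the groups alone (0.00156), and without any single library of them but XGFP+ replicate 3 or XGFP- replicate 1 (0.00138 to 0.0028). Its fall from ESCs to EpiLCs (-1.49, limma adjusted p = 0.000226) was lost without EpiLC replicate 4 or ESC replicate 1 (0.00111 and 0.00138).

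Rpl22l1, the paralog that Rpl22 is known to repress, was the member that rose most in XGFP- PGCLCs. It had 7019, 7299, 4949 and 5557 counts in ESCs, 3649, 3518, 3346 and 3430 in EpiLCs, 5801, 4984, 6525 and 5591 in the XGFP+ and 9056, 8811, 8810 and 8462 in the XGFP- PGCLCs. EpiLCs were lowest and XGFP- PGCLCs highest, and ESCs overlapped XGFP+ PGCLCs. The increase from EpiLCs was 0.71 in XGFP+ and 1.33 in XGFP- PGCLCs (SE 0.10 each), and the latter exceeded the former by 0.62 (SE 0.10, limma adjusted p = 4.93e-05). Rpl22 was called nowhere, with means between 17818 and 19863. Of the windows of Rpl22l1, 40.6% are shared with a processed copy.

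Rps27l ran the other way. It had 7521, 7362, 6650 and 7678 counts in ESCs and 10318, 9548, 10576 and 11012 in EpiLCs, then 4606, 4881, 4346 and 4844 in the XGFP+ and 3848, 4247, 3395 and 4124 in the XGFP- PGCLCs. No group overlapped another. It rose by 0.51 in EpiLCs (SE 0.07) and fell by 1.15 and 1.41 on the log2 scale in XGFP+ and XGFP- PGCLCs (SE 0.07 each, limma adjusted p = 3.9e-11 and 1.59e-12). Its parent Rps27, a zinc finger protein of the small subunit, had means of 23057 ± 2260, 21450 ± 840.4, 21852 ± 2306 and 29339 ± 2309, and the rise in XGFP- over XGFP+ PGCLCs was 0.43 (SE 0.08, limma adjusted p = 0.000266). That call was lost when the 2 groups were fitted alone (limma adjusted p = 0.00119) and without XGFP- replicate 1 or without XGFP- replicate 2 (0.00149 each). Rps27 shares 98.4% of its windows, mostly with its retrocopy Rps27rt, whose means ran from 78.2 to 98.2 and which was not called.

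Rpl7l1, a paralog of Rpl7 that acts in large subunit assembly, and Rpl36al, the autosomal paralog of Rpl36a, were lower in every PGCLC library than in every ESC and EpiLC library. The mean of Rpl7l1 was 9202 ± 497 in ESCs, 8507 ± 401 in EpiLCs, 5647 ± 255 in the XGFP+ and 4466 ± 73.7 in the XGFP- PGCLCs. The last 2 differed by -0.34 (SE 0.05, limma adjusted p = 2.75e-05), and Rpl7 was called in no comparison. Rpl36al had means of 5588 ± 333, 5990 ± 386, 3822 ± 278 and 3566 ± 245, with overlap between the PGCLC groups. Rps4l, a transcribed copy of Rps4x on chromosome 6, had means of 7876 ± 372, 7630 ± 655, 7021 ± 334 and 3979 ± 446, and fell in XGFP- PGCLCs alone (-0.82 against XGFP+ PGCLCs, SE 0.07). Rps19bp1, which binds Rps19 and the deacetylase Sirt1, had 721 ± 42.5, 919 ± 52.2, 519 ± 60.3 and 439 ± 15.8. Its rise in EpiLCs (0.35, limma adjusted p = 0.000972) was lost in the fit with a replicate block (limma adjusted p = 0.00114), with the groups alone (0.00151) and without any single library but ESC replicate 4 (0.00104 to 0.00414).

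**Figure D4:**
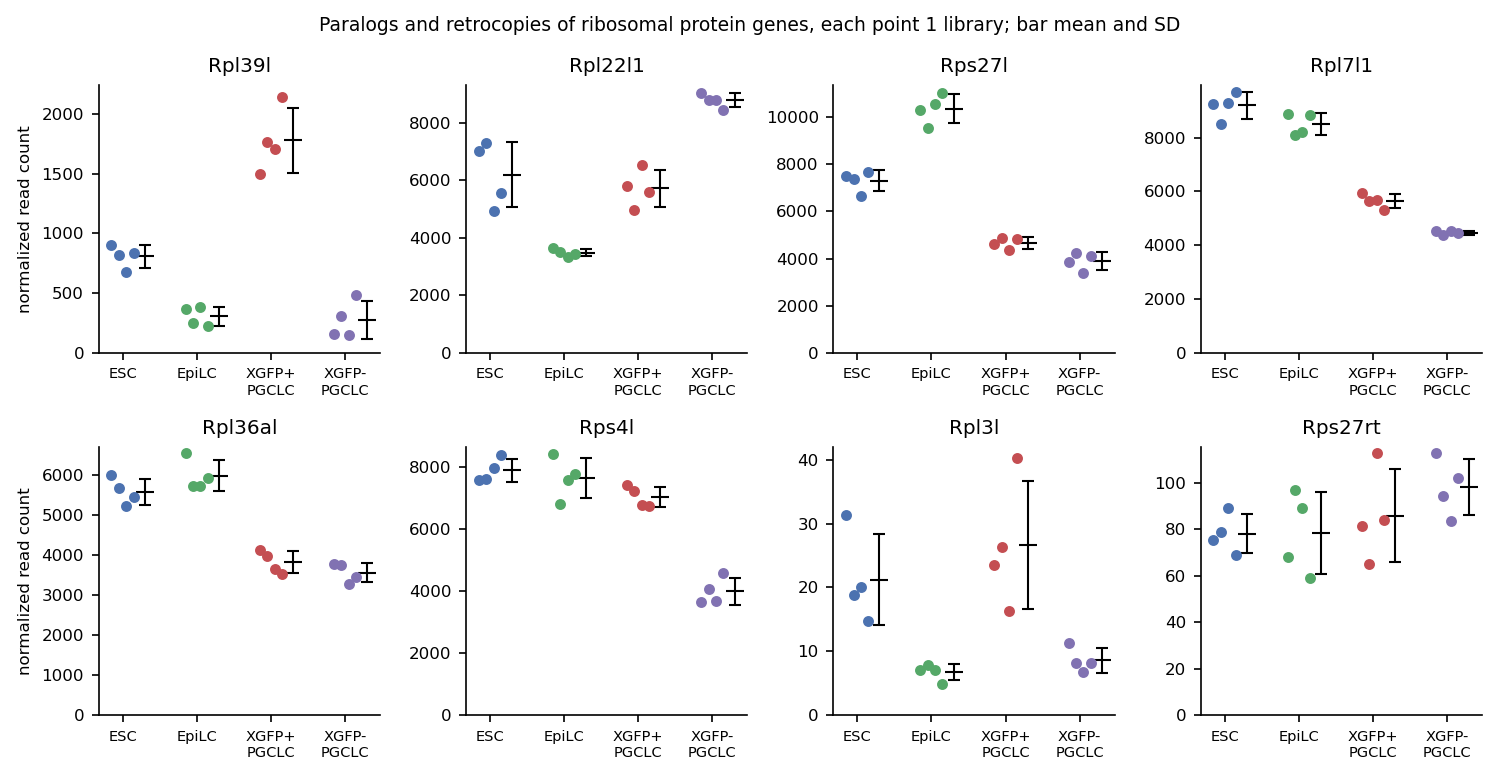
Normalized read count of 8 paralogs and copies, each point 1 library, with the group mean and SD (n = 4). Rpl39l and Rpl3l are high in ESCs and XGFP+ PGCLCs, Rpl22l1 is highest in XGFP- PGCLCs, Rps27l peaks in EpiLCs, and Rpl7l1, Rpl36al and Rps4l are lowest in XGFP- PGCLCs.

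Genes that build and use ribosomes were counted beside the members. Over all genes tested, 24.9% rose and 22.9% fell in EpiLCs. Against EpiLCs, 27.8% rose and 29.5% fell in XGFP+ PGCLCs, while 29.9% rose and 31.9% fell in their XGFP- counterparts. Between the PGCLC groups 11.3% of all genes were higher and 12.5% lower in the XGFP- cells. Of 30 ribosome biogenesis genes, 12 rose and 2 fell in EpiLCs, 0 rose and 24 fell in XGFP+ PGCLCs against EpiLCs (median -0.51), and 0 rose and 27 fell in XGFP- PGCLCs against EpiLCs (median -0.71). Between the PGCLC groups 4 were lower in XGFP- cells, a share near that of all genes, among them the X-linked Dkc1 (-0.63) and its partners Gar1 (-0.52) and Nhp2 (-0.35), which guide pseudouridylation of ribosomal RNA. In EpiLCs Bysl, of small subunit assembly, rose by 0.75 and Nhp2 by 0.58, while Dkc1 (-0.71) and the RNA polymerase I factor Ubtf (-0.33) fell. Nucleolin, Ncl, had a mean of 28695 ± 3863 in EpiLCs and 16494 ± 920.4 in XGFP- PGCLCs (log2 fold change -0.79). The tested hosts of small nucleolar RNAs, whose RNAs also start with a pyrimidine tract, were 4 of 8 listed, and all 4 fell in both PGCLC groups against EpiLCs, as Gas5 did by 1.01 and 1.01 on the log2 scale.

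Of 76 mitochondrial ribosomal protein genes, 18 rose and 7 fell in EpiLCs, 3 rose and 41 fell in XGFP+ and 5 rose and 47 fell in XGFP- PGCLCs against EpiLCs (medians 0.05, -0.32 and -0.38). The share that rose in EpiLCs was near the 24.9% of all genes. Mrps34 (1.10) and Mrpl16 (0.78) led the increases in EpiLCs, and Mrps5 (-0.53) and Mrps15 (-0.50) the decreases. Between the PGCLC groups 2 rose (Mrpl23 by 0.66 and Mrpl36 by 0.32) and 5 fell, with Mrps24 (-0.59) and Mrps5 (-0.50) the farthest. Of 14 translation factors with pyrimidine-tract mRNAs, 2 rose in EpiLCs (Tpt1 by 0.42 and Eef1d by 0.22), 1 rose and 6 fell in XGFP+ and 1 rose and 7 fell in XGFP- PGCLCs against EpiLCs, and Nap1l1 was lower in XGFP- than in XGFP+ PGCLCs (-0.38).

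Of 17 genes of MYC and mTORC1 signalling, 6 rose and 2 fell in EpiLCs, 6 rose and 5 fell in XGFP+ and 6 rose and 6 fell in XGFP- PGCLCs against EpiLCs, where 27.8% and 29.5%, and 29.9% and 31.9%, of all genes did. The mTORC1 inhibitor Sesn2 (0.92) and Mycn (0.90) rose in EpiLCs, and Mlst8, an mTOR complex subunit (-0.78), and Eif4ebp1, the translation repressor that mTORC1 inactivates (-0.54), fell. Between the PGCLC groups Max, the partner of MYC, was higher (0.26) and Eif4ebp1 lower (-0.54) in XGFP- cells. Myc fell from 278 ± 33.9 in EpiLCs to 61.2 ± 29.7 in the XGFP+ and 27 ± 4.3 in XGFP- PGCLCs. Among ribosomal proteins outside the symbol rule, Fau, a small subunit protein made as a fusion, and Rack1, a scaffold on the small subunit, were not called in these comparisons.

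**Figure D5:**
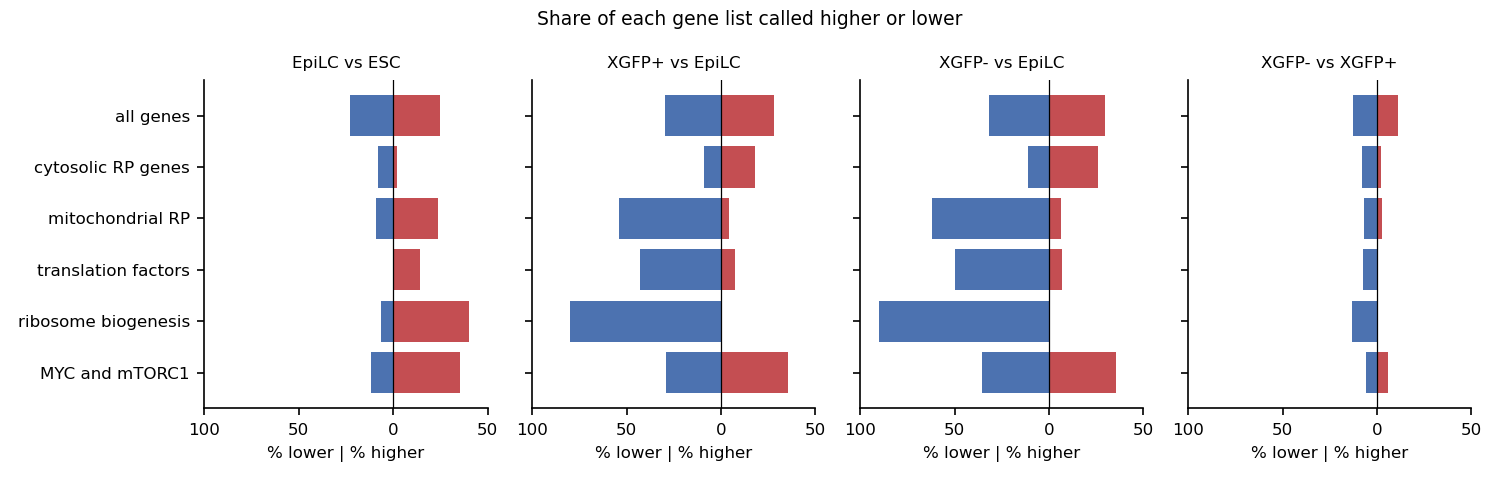
Share of each gene list called higher (red, right of 0) or lower (blue, left of 0) in 4 bulk comparisons, as % of the genes of the list that were tested. Ribosome biogenesis genes are lower in 80 to 90% in PGCLCs against EpiLCs, while 2.25% and 7.87% of the 89 cytosolic ribosomal protein genes are higher and lower in EpiLCs than in ESCs.

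In rOvary germ cells the members were measured as reads of full-length single-cell libraries without molecular identifiers. A cell was kept when it had 4000 or more genes, 10000 or more reads and no more than 5% of them from mitochondrial genes, which left 24 ESCs and 88 or more cells of each rOvary population. No label ties cells to cultures, so each population is 1 sample and no test was possible. Members took 8.76% of the reads of ESCs, 8.67% of constitutive, 8.96% of high, 7.51% of intermediate and 8.09% of low cells. The 95% exact intervals cover counting error only and were narrow, as in ESCs with 8.75% to 8.77%. These shares differed between flow cell lanes by as much as between sorts, with 10.5%, 9.86% and 10.0% for high, intermediate and low cells in lane 2 and 8.69%, 7.06% and 7.80% in lane 3. All constitutive cells were in lane 2 and all ESCs in lane 4.

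The X-linked members took 0.653%, 0.571%, 0.593%, 0.394% and 0.384% of reads in ESCs, constitutive, high, intermediate and low cells. Rps4x had 2537, 2244, 2350, 1409 and 1465 CPM in this order (reads of a gene scaled to the same total in each population), and Rpl10 had 2591, 2043, 2093, 1319 and 1226. The ratio of intermediate to high cells was 0.600 for Rps4x, 0.630 for Rpl10, 0.782 for Rpl39 and 0.844 for Rpl36a, and that of low to high cells 0.623, 0.586, 0.763 and 0.787, next to medians of 0.866 and 0.924 over 81 autosomal members. Within lane 2 the ratios of intermediate and low to high cells were 0.760 and 0.597 for Rps4x and 0.670 and 0.562 for Rpl10. Within lane 3 they were 0.567 and 0.628 for Rps4x and 0.620 and 0.592 for Rpl10, so both genes were lower than in high cells in either lane. Over 364 X-linked genes the median ratios were 0.843 and 0.746.

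Past a 1.5-fold change, 4 members (Rpl10, Rps4x, Rps12, Rpsa) were lower in intermediate than in high cells (11% of all 9201 genes) and 0 higher (27.8%), and 3 (Rpl10, Rps4x, Rps12) were lower in low than in high cells (8.8% of 9271 genes) and 0 higher (25.1%). Between high and constitutive cells 0 members passed it in either direction (3.5% of 8597 genes higher and 7.54% lower). Within lane 2, however, 9 members were higher in high than in constitutive cells (10.4% of 8593 genes), with a median ratio of 1.27 over members and 0.786 over all genes, and 0 lower (38.4%). Against high cells in lane 2, 2 members (Rpl7l1, Rps4y2) were lower (16.1%) and 0 higher (31.2%) in intermediate cells. Rpl10, Rps4x, Rps12 and Rpsa thus did not pass the fold for intermediate cells within lane 2. In low cells of this lane 3 were lower (Rpl10, Rps4x and Rps19bp1, 16.1%) and 2 higher (Rpl23a and Rpl3l, 33.4%). In lane 3, 6 were lower (12.2%) and 0 higher (29%) in intermediate cells, and 3 were lower (9.15%) and 0 higher (25.2%) in low cells. Past a 2-fold change 0 members differed in these 3 comparisons over all kept cells, where 1.23% of all genes were higher and 1.79% lower in high against constitutive, 13% and 5.43% in intermediate against high, and 11.9% and 4.43% in low against high cells. The members with the largest rise in low against high cells were Rpl3l (ratio 1.33, at 15.5 and 11.7 CPM) and Rpl13a (1.32), and in intermediate against high cells Rpl3l (1.27) and Rps28 (1.13). Rpl39l had 33.3 CPM in ESCs and 162, 172, 158 and 151 CPM in constitutive, high, intermediate and low cells. The 6 gonadal somatic markers summed to 9.2, 2.9, 147.6 and 39.7 CPM in constitutive, high, intermediate and low cells, and Dazl, Ddx4 and Sycp3 to 2030, 2003, 3874 and 2484 CPM. Most of the latter sum was Dazl, with 1968.25, 1692.22, 3107.14 and 2193.54 CPM in the same order. Ddx4 had 45.33, 106.22, 341.66 and 183.72 CPM, and Sycp3 had 16.45, 204.26, 424.74 and 107.09 CPM. Both were thus lower in constitutive than in high cells, unlike Dazl. Sycp3 was also lower in low than in high cells. The part of these markers in the differences between populations was not tested.

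At the level of alleles, Rps4x had a median ratio of 0.475 over 23 ESCs, and of 0.494 in constitutive, 0.498 in high, 0.472 in intermediate and 0.449 in low cells, each over 85 or more cells. The medians thus lay near equal use of both X chromosomes, and 3 low cells were at 0. The median ratio of Rpl10 was 0.703, 0.742, 0.682, 0.743 and 0.857 in the same order, over 23, 45, 98, 56 and 43 cells. Its highest median was thus in low cells, unlike in bulk, where XGFP- PGCLCs had the lowest ratios. The part of copies of Rpl10 in these ratios was not tested. For Rpl10, 0, 0, 3, 11 and 4 of these cells were at 0, with reads of Xcas alone, and 0, 6, 15, 19 and 11 were at 1, with reads of Xmus alone.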

How the data were processed

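Total RNA of XRep cells was sequenced in bulk (stranded kit) and from single ESCs and rOvary cells (full-length libraries, from a SMART-Seq Ultra Low Input kit in the study's methods and an updated SMART-seq2 protocol in the labels). The authors aligned bulk reads with STAR to mm10 with SNP positions of both strains masked, applied WASP filtering, counted reads with HTSeq 0.6.1 and deposited a signal per gene, the counts divided by DESeq2 1.16 size factors; these normalized read counts came out as whole reads within 0.01 for 100.0% of values in 16 libraries. The authors also deposited allelic ratios (fraction of mus reads) and raw single-cell read counts. The annotation release of the bulk table is not given in the sources used here. Replicates of a group differed beyond sampling noise (chi-square per degree of freedom 8.49 or more), so none was merged. Columns of 4 neural progenitor libraries matched no sample and were not used.

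Groups follow the labels. The main test was limma 3.58.1 (R 4.3.3) with trend on log2(normalized count + 1), all 16 libraries in 1 model, genes with a mean above 10, two-sided, Benjamini-Hochberg adjusted p below 0.001 over 16281 genes; fold changes are on this scale. Tested on simulated data for XGFP- against XGFP+ PGCLCs (16281 genes, 200 changed), it recovered 61.8% of 2-fold and 83.8% of 4-fold changes with 0 false calls. Allelic ratios were tested per gene by exact permutation. Single-cell reads were summed per population. Alternatives were edgeR 4.0.16 and DESeq2 1.42.0 on recovered reads, pseudocounts of 0.5 and 10, no filter and a mean above 100, quantile normalization, scaling to the total without members, the compared groups alone, a replicate block, an adjusted p below 0.05, a log2 fold change above 1, and each library left out. Lane-wise single-cell ratios and the XGFP+ and XGFP- groups alone with a block were chosen after seeing the data.

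Same-numbered XGFP+ and XGFP- libraries deviated together (r = 0.253, 0.135, 0.200 and 0.307 across genes), which pairs them. Same-numbered ESC and EpiLC libraries were also each other's best match, but more weakly (r = 0.041, 0.108, 0.110 and 0.056). In each other pair of groups, not every number matched its own best. Genes named are X-linked members, members with an allelic ratio, paralogs with their parents, members of set roles, the 3 largest called changes in each direction with a mean above 100, the 3 widest and narrowest, the 2 largest single-cell ratios each way, and the 2 largest called changes of each pathway list; others named in lists of 5 or fewer calls, and Rpl41, Rpl7a, Rps2, Rps10, Rps29, Rps23, Ncl, Gas5, Myc and Rps12, were chosen after their values were seen. Some members and listed genes are not reported here by name. Members and lists were chosen with earlier results of these data known. Versions of Python 3.11.15, pandas 2.3.3, numpy 2.4.6, scipy 1.17.1 and matplotlib 3.10.9 were used.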

Additional observations from a re-analysis of the deposited data

Results flagged for a closer look

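One of 152 groups of 4 libraries, tested gene by gene over the named members, held a library far from the rest, where chance flags about 1 in 20. It was Rps13, a small subunit gene, in EpiLCs. The highest library had a normalized read count of 12330, and the others had 9978, 10043 and 10109. The gap took 0.944 of the range of the group. Rps13 was called in no comparison, and the cause was not tested.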

How the results depend on the processing

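EdgeR, both pseudocounts and no filter changed no call of a named member. Counts of members called higher or lower changed as follows, in the order EpiLCs against ESCs (A), XGFP+ (B) and XGFP- PGCLCs (C) against EpiLCs, XGFP- against XGFP+ PGCLCs (D), and XGFP+ PGCLCs against ESCs (E). An adjusted p below 0.05 gave 6, 30, 38, 10 and 21 higher, and 19, 18 and 12 lower in B, C and E. Requiring a log2 fold change above 1 gave 0, 2, 1, 0 and 0 higher (14.6%, 14.5%, 16.1%, 4.07% and 13.3% of all genes). It gave 2, 1, 2, 2 and 0 lower (11.2%, 15.9%, 18.8%, 7.12% and 11.5% of all genes). Quantile normalization gave 5, 31, 42, 5 and 25 higher (24.5%, 30.3%, 32.3%, 11.1% and 24.9% of all genes), and the total without members 9 and 15 in B and C (26.7% and 28.6%). The compared groups alone gave 1 in A and D (21.9% and 11.5% of all genes). Leaving out 1 library gave 1 to 2, 9 to 19, 16 to 25, 1 to 3 and 4 to 6 higher and 4 to 7, 7 to 8, 9 to 10, 5 to 6 and 5 lower. In each of these fits the members' share lay below that of all genes. The shares were closest in C without EpiLC replicate 1, with 25 members and 28.6% of all genes higher.

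With a replicate block over all groups, 1, 23, 32, 3 and 10 members were higher (25.8%, 28.6%, 30.7%, 12.2% and 26% of all genes) and 8, 11, 13, 7 and 7 lower (23.8%, 30.4%, 32.7%, 13.4% and 25.8%); with the block in the PGCLC groups alone, where the numbers pair the libraries, 4 were higher and 8 lower (16.7% and 15.4%). It changed no other call of a named member than those of Rps19bp1 and Rps4x (XGFP- PGCLCs against EpiLCs, adjusted p = 0.000873).

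Signs turned for values near 0 that were not called. Rpl10 in EpiLCs against ESCs became 0.10 with quantile normalization, 0.0471 with the total without members and -0.0486 to 0.0298 without a library (above 0 without EpiLC replicate 3 or ESC replicate 1 or 2). Rpl36a became 0.15 (quantile) and -0.0775 to 0.0454 (without a library) in XGFP- PGCLCs against EpiLCs, and 0.13 (quantile), 0.0010 (total without members) and -0.0881 to 0.0283 (without a library) in XGFP+ PGCLCs against ESCs. The Rps23 ratio of EpiLCs against ESCs ranged from -0.0097 to 0.0243 without a library.

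Single-cell shares in ESCs, constitutive, high, intermediate and low cells were 8.98%, 8.89%, 9.15%, 7.73% and 8.32% without mitochondrial genes and 8.82%, 8.78%, 9.09%, 7.53% and 8.29% as means over cells. With the read minimum alone they were 8.64%, 9.01%, 7.57% and 8.15% in the last 4, and in cells with Dazl 8.73%, 7.74% and 8.31% in constitutive, intermediate and low cells. By lane they were 10.5%, 9.86% and 10.0% in lane 2 and 8.69%, 7.06% and 7.80% in lane 3. Past 2-fold, 0 members were lower in intermediate and 0 in low cells than in high cells. Past 1.5-fold within lane 2, 9 were higher in high against constitutive cells (10.4% of all genes). Against high cells there, 2 were lower in intermediate (16.1%) and 2 higher in low cells (33.4%). Allelic and single-cell depth, and 1 sample per population, limit these values; the causes were not tested.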
